A study of Mus musculus with 2 samples.

Results

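The Kruppel-like factors measured here are 10 transcription factor genes, Klf2, Klf3, Klf4, Klf5, Klf6, Klf7, Klf9, Klf10, Klf13 and Klf16. They were taken from the array table by symbol, as every probe set annotated to exactly 1 of these genes, which gave 34 of 45037 probe sets, leaving aside those for controls, and 10 of the 18193 genes with a symbol. The rule that takes the probe sets uses no measured value, but the genes were chosen with earlier results of these data known. RNA came from HT22 cells, a mouse hippocampal nerve cell line, plated in DMEM with fetal calf serum and treated for 1 h with J147, a small neurotrophic compound, or with its vehicle DMSO. In the labels, the vehicle sample has DMSO in its title and "untreated" as its treatment. The J147 concentration is 10 μM in the study's methods and 10 mM in the sample labels. Each condition was measured on 1 Affymetrix Mouse Genome array, so that every difference below is between 2 arrays, there are no p-values, and an effect of J147 and any further difference between the cultures cannot be told apart. Each array measured the RNA of a whole culture, so fewer cells that express a gene and less of its RNA per cell cannot be told apart either.

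Kruppel-like factors are zinc finger proteins that bind GC-rich DNA, among it the GC box and the CACCC element, through a conserved set of fingers at the carboxyl end. The amino-terminal part differs between members and sets the partners: Klf2, Klf4, Klf5, Klf6 and Klf7 carry activation domains, Klf3 recruits the corepressor CtBP, and Klf9, Klf10, Klf13 and Klf16 bind the corepressor Sin3. Many members are early response genes, and in nerve cells the family is known for its effects on neurite growth, which Klf6 and Klf7 promote and Klf4 and Klf9 restrain.

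The deposited values of the 2 arrays were alike for most genes. The study's methods describe a normalization of the arrays, so this likeness does not measure how alike the cultures were. Values are deposited gcRMA log2 intensities, with a lowest value of 2.234 that 46.3% of the vehicle and 46.0% of the J147 values lay at. Differences are J147 minus vehicle in log2 units after each array was scaled to a median of 100, which shifted them by -0.0046. A probe set was scored if its mean scaled intensity was above 100, which 22545 were, and a gene was read from its scored probe set with the highest mean, which gave 10611 genes. The median difference of these genes was -0.00, which is the shift by scaling, with quartiles of -0.08 and 0.04 and an SD of 0.17. Of the scored probe sets, 18.9% had identical deposited values on both arrays, 6.08% in the seventh and 4.35% in the top decile of level. They are part of the medians and SDs given here. Of the probe sets for control RNA, 18 for hybridization spikes had a median difference of 0.14, 24 for labelling spikes one of -0.15 and 3 for 18S rRNA one of -0.62, and their part in the results was not tested. Of 8 neuron markers 2 lay above the lowest value, Tubb3 and Syn1, while Map2, Snap25, Syt1, Rbfox3, Nefl and Stmn2 were within 0.01 of it on both arrays. All 7 fibroblast markers, 2 of 5 astrocyte markers, 2 of 5 macrophage and microglia markers and 0 of 5 endothelial markers were above it. The log2 summed level of the neuron markers was 8.25 for vehicle and 8.45 for J147, and that of the fibroblast markers was 16.3 on both arrays, and the part of the marker levels in the results was not tested either.

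Among the Kruppel-like genes, Klf16, Klf9, Klf7 and Klf5 were at least 1.5-fold higher in the J147-treated cells, and none was as much lower. Their log2 differences were 0.78, 0.75, 0.70 and 0.61, and they comprise members with an activation domain and members that bind Sin3. Of the 9 scored members, 4 were at least 1.5-fold higher, against 0.556% of all scored genes, and 0 at least 1.5-fold lower, against 0.81%. The 5 others, Klf3, Klf4, Klf6, Klf10 and Klf13, lay between -0.28 and 0.18, and Klf2 was not scored. The median over the 9 members was 0.18, which is the value of Klf6, beside -0.00 for all scored genes. By probe set, 30 of 34 were scored, 10 of them were at least 1.5-fold higher, against 0.856% of all scored probe sets, and 0 at least 1.5-fold lower, against 0.781%. Of the 10, 1451739_at of Klf5 passed the filter only through the J147 array, where it was high, and of the 29 scored with both arrays above the filter 9 were at least 1.5-fold higher. The share of all probe sets with both arrays above the filter was not computed, so the 9 of 29 have no matching background. The 9 were all 4 probe sets of Klf7, 3 of 6 of Klf9, the only one of Klf16 and 1 of Klf5. All 10 lie below 2-fold.

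**Figure D1:**
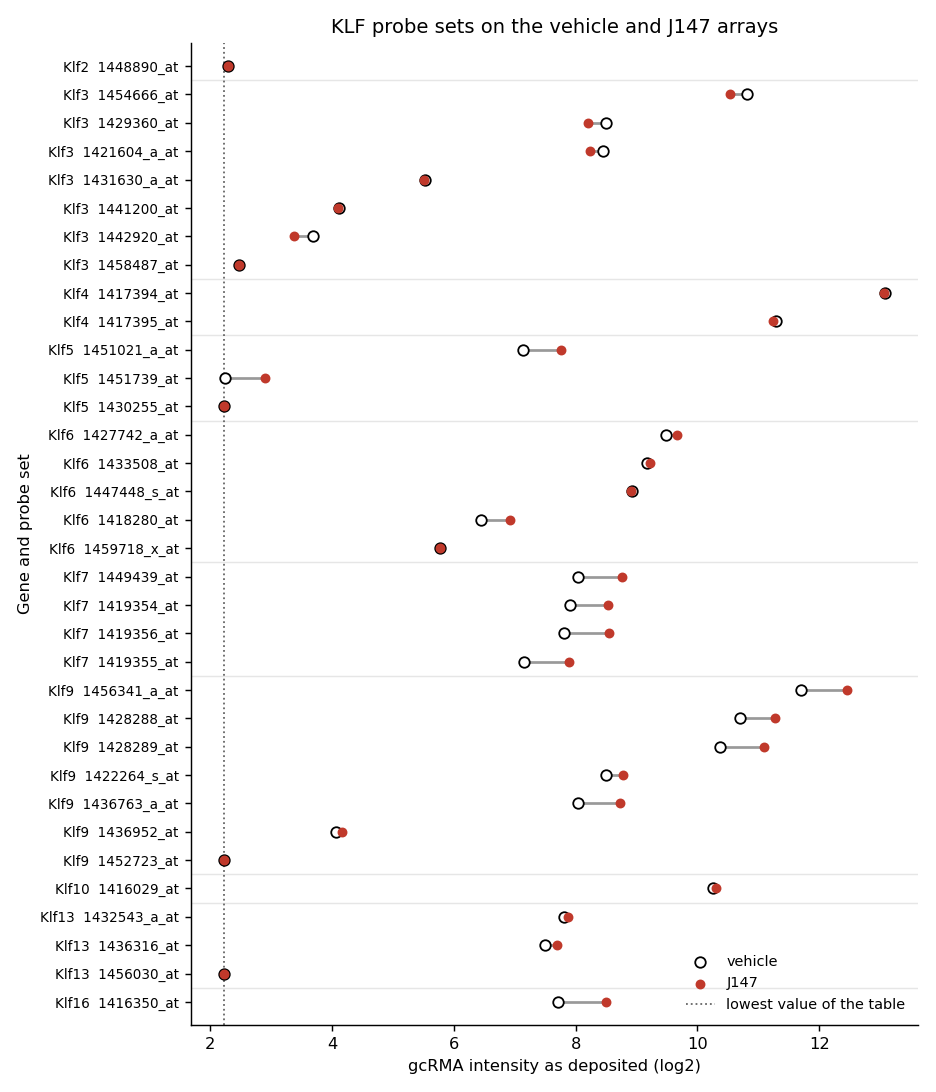
Deposited log2 intensity (x axis) of each of the 34 Kruppel-like factor probe sets (y axis, by gene) with vehicle (open circles) and with J147 (filled circles), with the lowest value of the table as a dotted line. J147 lies to the right of vehicle for all 4 Klf7 probe sets, for Klf16 and for most of Klf9, to the left for the 3 brightest Klf3 probe sets and 1442920_at, and the circles overlap for Klf2, Klf4 and Klf10.

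The sequence before the start of transcription was read for the members in a RefSeq promoter table of GRCm38.p6, which matched Klf2, Klf3, Klf4, Klf6, Klf7, Klf9 and Klf13, 7 of 10, the others being Klf5, Klf10 and Klf16. For 3 members a stretch of 250 bases and for Klf7 one of 30 follow below, 5′ to 3′ on the gene's strand, since they belong to the higher members Klf9 and Klf7 in the table, to Klf3, the member with the lowest difference, and to Klf4, which was nearly level. Capitals mark every match, on either strand, to the motifs named after the sequences. Of Klf7 the stretch shown is bases -140 to -111, the start being base 0, since the entry's start lies 956 bases inside the RefSeq gene span.
Klf9 upstream, chr19:23140976-23141225 (plus strand): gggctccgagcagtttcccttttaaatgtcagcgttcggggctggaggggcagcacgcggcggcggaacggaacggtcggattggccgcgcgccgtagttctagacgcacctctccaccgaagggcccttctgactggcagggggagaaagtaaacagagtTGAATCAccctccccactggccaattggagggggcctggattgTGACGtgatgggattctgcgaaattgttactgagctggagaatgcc
Klf7 stretch, chr1:64121500-64121529 (minus strand): tgGGGTGGgGGGTGGggagggaagggaagg
Klf3 upstream, chr5:64803271-64803520 (plus strand): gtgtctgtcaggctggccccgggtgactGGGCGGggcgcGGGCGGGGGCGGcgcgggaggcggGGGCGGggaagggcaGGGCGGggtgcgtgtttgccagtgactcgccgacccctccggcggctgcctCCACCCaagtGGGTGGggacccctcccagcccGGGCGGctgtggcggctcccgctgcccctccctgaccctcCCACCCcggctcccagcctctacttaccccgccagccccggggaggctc
Klf4 upstream, chr4:55532476-55532725 (minus strand): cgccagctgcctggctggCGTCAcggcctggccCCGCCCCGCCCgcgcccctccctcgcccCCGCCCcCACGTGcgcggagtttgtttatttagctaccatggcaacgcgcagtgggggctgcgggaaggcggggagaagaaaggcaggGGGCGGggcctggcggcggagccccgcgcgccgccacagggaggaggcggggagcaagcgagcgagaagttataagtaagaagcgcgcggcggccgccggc

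The motifs searched in the 300 bases around the start, both strands, were the GC box GGGCGG, the CACCC element CCACCC, the cAMP response element TGACGTCA and its core TGACG, which lies within it, the AP-1 site TGANTCA, the E-box CACGTG, the EGR site GCGTGGGCG, the TATA box TATAAA, and the CArG box and MEF2 site by name. The members differ in them. The Klf9 window held 1 AP-1 match at -89 to -83, as 7.81% of all 32851 promoters hold at least 1, and 1 match to the TGACG core at -46 to -42, a motif found in 20.8% of promoters. It held no GC box and no CACCC element. The GC box was in 35.7% of all promoters and in 6 of the 7 members, with 6 matches for Klf3, 4 for Klf4, 3 for Klf13, 2 for Klf2 and 1 each for Klf6 and Klf7. The CACCC element, in 31.5% of all promoters, had 3 matches each for Klf3 and Klf7, 2 of the latter in the stretch shown, and 1 each for Klf2 and Klf13. The E-box, in 7.15% of all promoters, was in the windows of Klf4 and Klf6, and the MEF2 site, in 3.19%, in that of Klf2. The TGACG core was also in the windows of Klf2, Klf3, Klf4 and Klf13, for Klf3 after the start. No window of the 7 held the full cAMP response element (1.79% of promoters), the EGR site (0.612%), the TATA box (13.6%) or the CArG box (1.63%). The windows were 58.3% GC for Klf7 to 76.7% GC for Klf3, and 63.3% for Klf9, beside a median of 52.7% over all promoters. A match is a run of letters and not a measured binding site, and the 2 arrays hold no measure of binding.

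Of the members with an activation domain, Klf7 and Klf5 were higher in J147-treated cells, Klf4 and Klf6 differed by less than 1.5-fold, and Klf2 was not scored. Klf7, which promotes axon growth in sensory neurons, has 4 probe sets, all made from 1 reference sequence and so not independent of one another. Probe set 1449439_at had a log2 intensity of 8.05 with vehicle and 8.75 with J147, a difference of 0.70 or 1.63-fold. Probe set 1419354_at gave 7.90 with vehicle and 8.52 with J147, a difference of 0.62. Probe set 1419356_at gave 7.81 and 8.55, a difference of 0.74, and 1419355_at gave 7.16 and 7.89, a difference of 0.73. The J147 value was higher on all 4, and the SD between their differences was 0.055, beside a median SD of 0.083 and a 95th percentile of 0.297 over the 5194 genes with at least 2 scored probe sets. The brightest of them differed by 4.19 times the SD of all scored probe sets in its decile of level, which was 0.17.

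Klf5, a regulator of epithelial and smooth muscle cell proliferation, has 3 probe sets. Probe set 1451021_a_at had a log2 intensity of 7.14 with vehicle and 7.76 with J147, a difference of 0.61 or 1.53-fold, which is just past the threshold of 1.5-fold. Probe set 1451739_at was near the lowest value, at 2.24 for vehicle and 2.90 for J147, a difference of 0.65. It was scored only through the J147 array, with scaled intensities of 95.8 and 151, so it could pass the filter only by being higher there. With 50 added to the intensities its difference was 0.46. The third probe set, 1430255_at, gave the lowest value with vehicle and with J147.

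Klf6, an early response factor of tissue injury, was measured by 5 scored probe sets that differed among themselves. The brightest, 1427742_a_at, had a log2 intensity of 9.48 with vehicle and 9.66 with J147, a difference of 0.18. Probe set 1418280_at went from 6.45 to 6.92, a difference of 0.47 or 1.38-fold, and was the Klf6 probe set with the greatest difference. The 3 others, 1433508_at, 1447448_s_at and 1459718_x_at, differed by 0.05, -0.03 and -0.00, and the last had 1 identical value of 5.77 on both arrays. None of the 5 was past 1.5-fold, and the last 2 share a reference sequence.

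Klf4, a factor of epithelial differentiation and of reprogramming, had high and nearly equal values. Probe set 1417394_at had a log2 intensity of 13.09 with vehicle and 13.07 with J147, and 1417395_at had 11.29 and 11.23, with differences of -0.02 and -0.06. Klf2, a factor of endothelial quiescence that acts beside Klf4 in those cells, lay at 2.29 on both arrays by its only probe set. Its mean scaled intensity of 99.1 was just under the filter of 100, so the arrays give no difference for Klf2.

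Klf3, which represses through CtBP, was the member with the lowest difference. Its brightest probe set, 1454666_at, had a log2 intensity of 10.81 with vehicle and 10.54 with J147, a difference of -0.28, which is 0.826-fold. Probe set 1429360_at gave 8.50 and 8.20, a difference of -0.30, and 1421604_a_at gave 8.45 and 8.24, a difference of -0.21. The vehicle value was the higher one on all 3. Of the 4 dimmer probe sets, 1442920_at gave 3.69 and 3.38, a difference of -0.32, and 1431630_a_at, 1441200_at and 1458487_at differed by -0.03, -0.03 and -0.00. All 7 were scored, none was 1.5-fold lower, and the difference of the brightest was -2.09 times the SD of its level decile.

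Of the members that bind Sin3, Klf9 and Klf16 were at least 1.5-fold higher and Klf10 and Klf13 were not. Klf9, a target of glucocorticoid and thyroid hormone that is known in the maturation of hippocampal granule neurons, has 7 probe sets. The brightest, 1456341_a_at, had a log2 intensity of 11.71 with vehicle and 12.46 with J147, a difference of 0.75 or 1.68-fold. Probe set 1428289_at went from 10.36 to 11.09, a difference of 0.72, and 1436763_a_at from 8.04 to 8.73, a difference of 0.69. These 3 were past 1.5-fold, with the J147 value higher on each. Just outside it was 1428288_at, at 10.69 for vehicle and 11.28 for J147, with a difference of 0.581 where 1.5-fold is 0.585. The probe sets 1428288_at, 1428289_at and 1452723_at share a reference sequence. Smaller differences were 0.27 for 1422264_s_at, from 8.50 to 8.78, and 0.09 for 1436952_at, from 4.07 to 4.17, and 1452723_at gave the lowest value with vehicle and with J147. The SD between the 6 scored differences was 0.27, beside a median of 0.083 and a 95th percentile of 0.297 over genes with several scored probe sets, so the Klf9 probe sets differed among themselves more than those of most genes. When the gene was read from the mean of these 6, Klf9 was below the threshold, at 0.52. Without probe sets whose suffix is _a_at, _s_at or _x_at it was at 0.58, also below it.

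The size of the Klf9 difference was rare at its level. In the top decile of mean level, the SD of the differences was 0.10, and 3 of 2255 probe sets (0.133%) were at least 1.5-fold higher, 1 of them Klf9 1456341_a_at, at 7.32 times that SD. In the seventh decile, where the values of Klf16 and of most Klf7 probe sets lie, 12 of 2254 probe sets (0.532%) were at least 1.5-fold higher, and 5 of the 12 were of Klf7, Klf9 and Klf16. The members' own values are part of these counts.

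**Figure D2:**
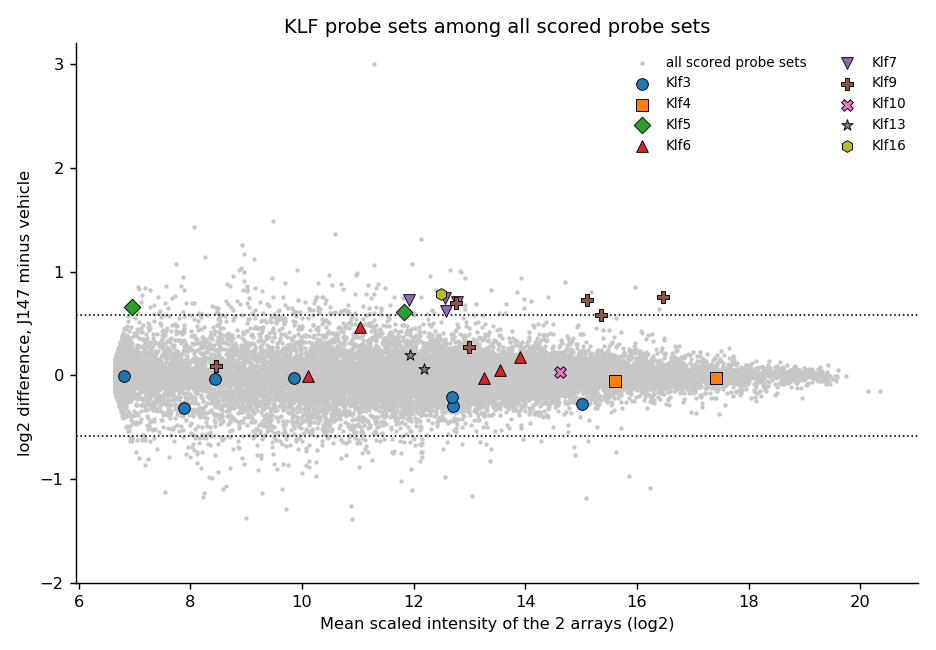
Log2 difference, J147 minus vehicle (y axis), against the log2 mean scaled intensity of the 2 arrays (x axis) for all 22545 scored probe sets (grey) and the 30 scored probe sets of the Kruppel-like factors (coloured by gene), with dotted lines at 1.5-fold. Klf16, the 4 Klf7 probe sets and 3 of the 6 Klf9 probe sets lie above the upper line, 2 Klf9 probe sets lie within the grey points at 0.09 and 0.27, and Klf4 and Klf10 lie between -0.06 and 0.03.

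Klf16, first described as a regulator of dopamine receptor genes, had the greatest difference of the members by its only probe set. Probe set 1416350_at had a log2 intensity of 7.71 with vehicle and 8.50 with J147, a difference of 0.78 or 1.72-fold. That is 4.65 times the SD of its level decile, and no second probe set measures the gene.

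Klf10, a gene induced by TGF-beta, had a log2 intensity of 10.26 with vehicle and 10.30 with J147 by its only probe set, 1416029_at, a difference of 0.03. Klf13, known as an activator of the chemokine gene Ccl5 in T lymphocytes, had 2 scored probe sets. Its brightest, 1432543_a_at, gave 7.82 and 7.88, a difference of 0.06, and 1436316_at gave 7.49 and 7.69, a difference of 0.19, while 1456030_at gave the lowest value with both. Both genes were nearly level on the 2 arrays.

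**Figure D3:**
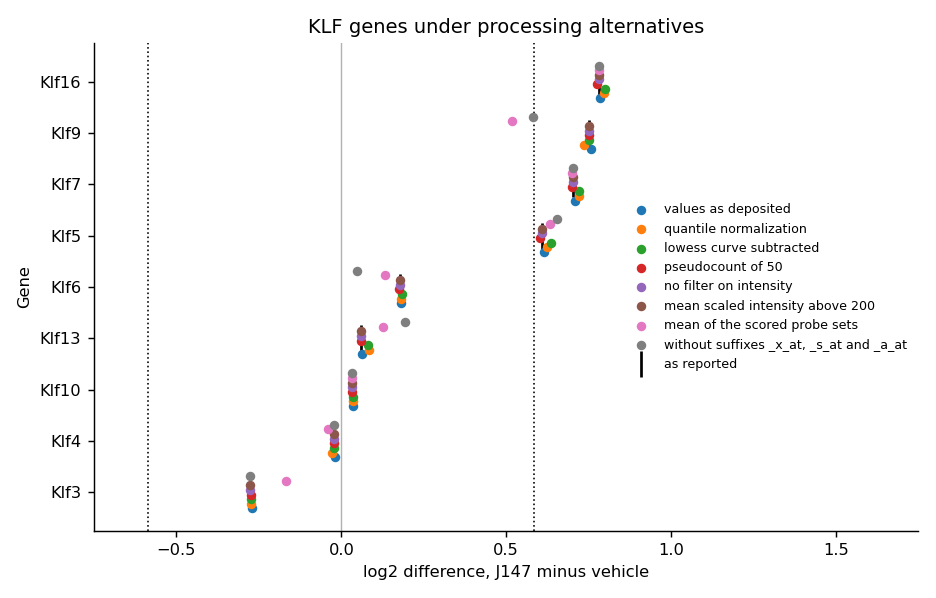
Log2 difference, J147 minus vehicle (x axis), of the 9 scored Kruppel-like genes (y axis) as reported (black bar) and under 8 processing alternatives (coloured points), with dotted lines at 1.5-fold. Klf16, Klf7 and Klf5 lie right of the upper line under all 8. Klf9 lies left of it under the mean of the scored probe sets (0.52) and without the suffixes _a_at, _s_at and _x_at (0.58). Dropping or raising the filter moved no point, since each gene's brightest probe set stayed the same. Without these suffixes Klf5 is read from 1451739_at, which was scored only through the J147 array, and the mean for Klf5 includes that probe set.

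By both log2 values together, the scored probe sets closest to that of Klf16 (Euclidean distance over the 2 arrays) were 1419356_at of Klf7, 1419431_at of Ereg, which encodes the growth factor epiregulin, and 1419354_at of Klf7. Ereg had a log2 intensity of 7.59 with vehicle and 8.42 with J147, a difference of 0.82. Closest to Klf3 were probe sets of Tmem123, Nnt and Sec11c, with differences of -0.24, -0.25 and -0.25. With 2 arrays, closeness says only that the level and the difference were alike.

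No other scored gene of the family and no SP factor was 1.5-fold different, where 0.556% of all scored genes were higher and 0.81% lower. With so few genes scored, this does not set them apart from other genes. Of 7 other Kruppel-like genes 6 were listed and only Klf11, a TGF-beta-inducible relative of Klf10, was scored. It lay near the lowest value, with 2.56 for vehicle, 2.55 for J147 and a difference of -0.01. Of 9 SP factors, which bind the same GC boxes, 3 were scored and 0 were 1.5-fold different. Sp3 had log2 intensities of 10.20 and 10.04, a difference of -0.17, and Sp1 had 10.30 and 10.36, a difference of 0.06. A dimmer probe set of Sp1, 1448994_at, differed by -0.29, close to the -0.28 of Klf3.

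Among the partners and regulators of Kruppel-like proteins few genes were past 1.5-fold, and of all scored genes 0.556% were higher and 0.81% lower. Counts of 0 in lists this short do not set them apart from other genes. Of 10 scored corepressors and coactivators 0 were, with a median of -0.06, and the greatest differences were -0.31 for the acetyltransferase gene Ep300 and -0.25 for Sap30, a subunit of the Sin3 complex. Of 8 ubiquitin ligase and deubiquitinase genes 0 were, with differences from -0.28 for Vhl to 0.25 for Fbxo32. In the ERK5 and MEF2 pathway, which drives Klf2 and Klf4 in endothelium, 0 of 11 genes were higher and 1 was lower. The greatest rise of a gene was 0.36, that of Mapk7, which encodes ERK5. A dimmer probe set of Mef2d, 1434487_at, differed by 0.87. The lower gene was Mef2c, with a log2 intensity of 5.55 with vehicle and 4.92 with J147. Its brightest probe set differed by -0.64, while its 3 other scored probe sets differed by -0.05 to -0.00. Under the mean of the probe sets and without the suffixes _a_at, _s_at and _x_at Mef2c was not past 1.5-fold.

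Of 22 genes described as targets of Kruppel-like factors 15 were scored, with a median of -0.00. The only one at least 1.5-fold higher was Smad7, an inhibitor of TGF-beta signalling, whose brightest probe set had 7.33 for vehicle and 7.93 for J147, a difference of 0.60, and whose other one differed by 0.44. With the mean of both, Smad7 was below 1.5-fold. The only one lower was the cell cycle inhibitor Cdkn1a, at 11.61 for vehicle and 10.88 for J147, a difference of -0.74, with -0.69 by its other probe set. Targets were therefore past 1.5-fold in both directions, 1 of 15 in each, beside 0.556% of all scored genes higher and 0.81% lower.

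More genes were higher in 2 lists, nuclear receptor and clock genes and other early response factors. Both were chosen with earlier results of these data known, and the study itself lists Egr3 and Egr1 among its top up-regulated genes. The arrays hold no measure of an input to these genes. Over all scored genes, 0.556% were at least 1.5-fold higher and 0.81% lower. The 12 nuclear receptor and clock genes were listed as sharing inputs with Klf9 and Klf10. Of them 10 were scored, 2 were at least 1.5-fold higher and 0 lower, with a median of 0.15. The clock gene Per2 had a log2 intensity of 3.83 with vehicle and 5.09 with J147, 2.38-fold higher, and the clock repressor gene Bhlhe40 had 8.85 and 9.46, a difference of 0.60. Per2 was read from 1417602_at, and its other probe sets, 1417603_at and 1457350_at, gave the lowest value on both arrays. The other genes of the list were named after their values were seen. Fkbp5, Tsc22d3 and Sgk1 differed by -0.00, -0.15 and 0.30. A dimmer scored probe set of Fkbp5, 1448231_at, differed by -0.39. Per1, Nr1d1 and Dbp differed by 0.34, 0.48 and -0.04, and the receptor genes Nr3c1 and Thra by -0.12 and -0.23. Zbtb16 and Thrb were not scored. Of 15 other early response transcription factor genes 11 were scored, 4 were at least 1.5-fold higher and 0 lower, with a median of 0.45. These were Egr3, Egr1, Nr4a1 and Fosl1, which were 7.98-fold, 2.49-fold, 1.72-fold and 1.69-fold higher, so that Klf16 and Klf9 (1.72-fold and 1.68-fold) lay near the last 2. Egr3 was read from 1436329_at, and its other probe set, 1421486_at, gave the lowest value on both arrays. The median of the early response list was 0.03 without the filter on intensity and 0.04 without the suffixes _a_at, _s_at and _x_at. That of the nuclear receptor and clock list was -0.00 and 0.30 under the same settings.

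**Figure D4:**
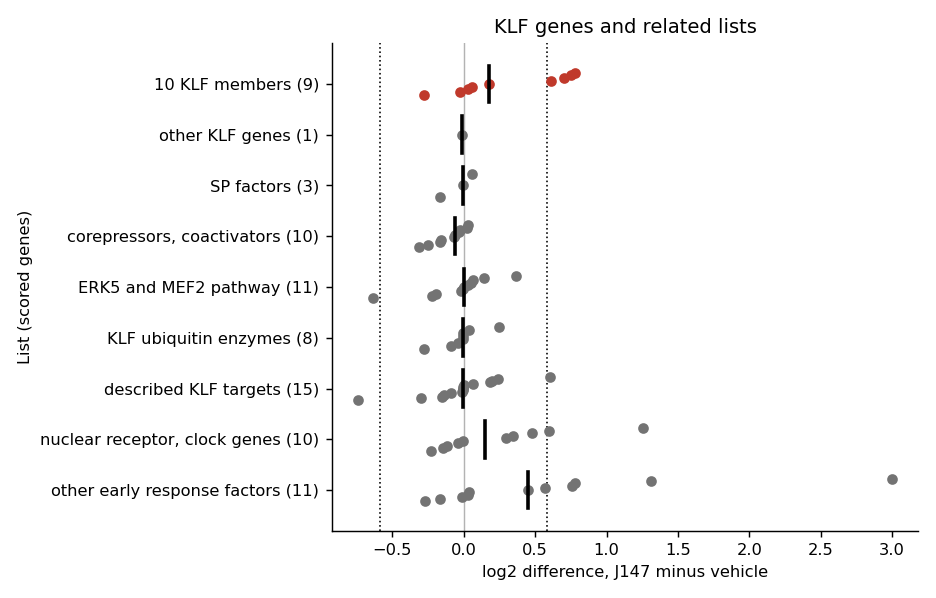
Log2 difference, J147 minus vehicle (x axis), of each scored gene (points) in the Kruppel-like factors and the 8 other lists (y axis, number of scored genes in brackets), with the median of each list as a black bar and dotted lines at 1.5-fold. Medians are 0.18 for the Kruppel-like factors, 0.15 for nuclear receptor and clock genes and 0.45 for other early response factors, and between -0.06 and 0.01 for the other lists.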

How the data were processed

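RNA of vehicle-treated and of J147-treated HT22 cells was hybridized to 1 Affymetrix Mouse Genome array each. The authors summarised the probes with gcRMA in R, which corrects background by probe GC content, and deposited log2 intensities of 45101 probe sets, 64 of them controls. Affymetrix Expression Console 1.0 is listed in the submitters' processing notes. The sources used here give no version of gcRMA. Values within 0.01 of the lowest value have no order.

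Each array was then scaled to a median of 100 over all 45037 probe sets other than controls, as the methods describe, and probe sets with a mean above 100 were scored. Only the 34945 probe sets annotated with a single gene symbol were read, leaving out 932 with several and 9160 without one. Symbols were brought up to date by Entrez gene number with the GRCm38.p6 gene table of RefSeq. A gene was called different at 1.5-fold or more. Promoters come from a RefSeq table of that build, and the values themselves name no build. Proteins were not analysed here.

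The members and the 8 gene lists were chosen with earlier results of these data known. Named are all members with every probe set, from each list the genes at least 1.5-fold different or else the 2 with the greatest difference, and the 3 probe sets closest to the members with the highest and lowest difference. As 10 alternatives, the analysis was repeated with no scaling, quantile normalization, a lowess curve (span 0.3) subtracted, a pseudocount of 50, no filter or one at 200, the mean of a gene's probe sets, probe sets without the suffixes _x_at, _s_at and _a_at, and thresholds of 2-fold and of midway between 1-fold and 1.5-fold. The scripts ran under Python 3.11.15 with statsmodels 0.14.6, pandas 2.3.3, numpy 2.4.6 and matplotlib 3.10.9 and were tested on simulated data. With 1 array a condition, precision is limited by the number of arrays.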

Additional observations from a re-analysis of the deposited data

How the results depend on the processing

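Over 10 alternatives, 443 values were recomputed. A change of sign was looked for only in values past 1.5-fold as reported, and 0 of these had one. Most of the 443 could not count as changed in sign. Counts have no sign, no median was past 1.5-fold, and most single differences were not either. Of the 100 values for member genes, their counts and their median, 97 were close to the reported ones and 3 moved. A difference was called close if it changed by less than the SD of its level decile. Klf13 was therefore called close, at 0.06 as reported and 0.19 without the suffixes _a_at, _s_at and _x_at. Not all of the 97 could have moved. Dropping or raising the filter left each scored member's brightest probe set, and so its difference, the same. Scaling shifted every difference by -0.0046, less than the SD of any level decile, so leaving it out could not move a difference. Klf10 and Klf16 have 1 probe set each, so the mean and the suffixes could not change them. The 97 therefore include values that could not differ, and overstate how stable the results were. Klf9 was at 0.52 with the mean of its scored probe sets and at 0.58 without these suffixes, both under 1.5-fold. This left 3 members higher in place of 4, where 0.443% and 0.632% of all scored genes were higher. A count within 1.5-fold of the reported one was called close, as was this one. At 2-fold 0 members were higher and 0 lower, where 0.066% of all scored genes were higher and 0.075% lower. At a threshold midway between 1-fold and 1.5-fold, 4 members were higher and 0 lower, where 2.31% of all scored genes were higher and 4.05% lower. Klf16 ranged from 0.77 to 0.80, Klf7 from 0.70 to 0.72, Klf5 from 0.60 to 0.65, Klf3 from -0.28 to -0.17 and Klf6 from 0.05 to 0.18. The 0.65 of Klf5 is that of 1451739_at, which was scored only through the J147 array. The mean for Klf5 (0.63) includes that probe set. Of the 120 values for single member probe sets, 1 moved, 1451739_at of Klf5, and of the 223 for the other lists 14 moved. No paired analysis was possible because each condition has 1 array. Probe sets at the lowest value allow no statement on change, and this holds for Klf2, whose level is near it.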

Other observations

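Some genes of the lists had a dimmer probe set that differed more than the brightest one, from which the gene was read. Mef2d, a partner factor in the ERK5 pathway, had a log2 intensity of 6.34 with vehicle and 7.22 with J147 by 1434487_at, a difference of 0.87, while its brightest probe set differed by 0.03. Sin3a, the corepressor that Klf9 and its relatives bind, differed by 0.03 by its brightest probe set and by 0.26 and 0.40 by the others. The ubiquitin ligase gene Siah1a had identical values on both arrays by its brightest probe set and differed by 0.40 by 1449733_s_at. Smurf1, another ligase gene, differed by 0.03 by its brightest probe set and by -0.31 by 1428396_at. These genes were chosen after their values were seen.

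Of the 918 genes with at least 4 scored probe sets, Klf7 was the only one with at least 4 of them 1.5-fold higher, and 0 had at least 4 that were 1.5-fold lower. This criterion was also chosen after the values of Klf7 were seen, and its probe sets share 1 reference sequence.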
